A study of Mus musculus with 92 samples.

Results

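The crypt and the villus of the small intestine were compared in mice that carry 1 floxed copy of Eif4g2 and a tamoxifen-inducible Cre recombinase (CreER) made from the Rosa26 locus. Eif4g2 encodes a relative of the scaffold protein eIF4G that takes part in starting translation on some messenger RNAs. The labels give 5 such animals, each with 1 crypt and 1 villus library, and the libraries were paired by the animal number in their names. These are 10 of the 92 samples of the series. Their genotype is Eif4g2(flox/+), Rosa26(CreER), all were given tamoxifen, and both tissues were collected on day 9 after its first administration. The comparison is therefore not of wild-type tissue: crypt and villus libraries alike come from animals with the same heterozygous allele, driver and drug. The Rosa26 locus is active in nearly all cell types, so recombination was not restricted to the epithelium. Polyadenylated RNA was sequenced in libraries that keep the strand. Neither sex, age nor the length of gut that was sampled is given in the labels, and nothing there says how crypts were separated from villi. A second set of animals served for comparison, 4 heterozygotes of genotype Eif4g2(flox/+),Vil1(CreER), whose recombinase is driven by the villin promoter in intestinal epithelium. They received tamoxifen at 100 mg/kg on 4 days and were dissected after 3 months. A further set, 4 homozygotes of genotype Eif4g2(flox/flox), Rosa26(CreER) with both tissues on day 9, was used to ask where the crypt-villus difference changed with the genotype.

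The epithelium of the small intestine renews itself from stem cells at the base of the crypts, which divide under Wnt and Notch signals beside Paneth cells that make antimicrobial peptides. Daughter cells divide further in the upper crypt, leave the cell cycle, and move up the villus as absorptive enterocytes, goblet cells, enteroendocrine cells or tuft cells until they are shed at the tip. BMP and hedgehog signals rise towards the villus, where enterocytes build a brush border and take up sugars, peptides, vitamins and fat.

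The crypt libraries held between 22458821 and 32290415 counts and the villus libraries between 23088691 and 31263627. Levels below are library-size-scaled counts (CPM) after normalisation by the trimmed mean of M values (TMM), with the 5 animals always in the order of their replicate numbers. The scaling factors were 1.30 to 1.47 in crypt and 0.669 to 0.811 in villus, and 21325 to 21875 genes had a count in a crypt library against 19104 to 19617 in a villus library. The first principal component held 89.4% of the variance and separated the tissues. The villus library of replicate 3 stood apart on the second. Genes of the mitochondrial genome took 24.5% of its counts, against 2.74 to 9.63% in the other villus libraries and 6.24 to 12.4% in the crypt libraries. The mean shares were 8.56 ± 2.51% (SD, n = 5) in crypt and 9.76 ± 8.74% in villus, a paired difference of 1.2 points that was positive in 3 of 5 animals (two-sided exact sign-flip permutation test, p = 0.8125, where 0.0625 is the smallest p that 5 pairs allow). Without that animal the difference was -3.05 points. By animal the differences were -6.27, -8.69, 18.2, 0.854 and 1.91 points. With replicates 1 and 2 alone, 7 of 13 mitochondrial genes were higher in crypt and 0 higher in villus, with a median log2 difference of -1.17. With replicates 3, 4 and 5 alone, 13 of 13 were higher in villus, with a median of 1.72. Replicates are separate animals. The standard errors (SE) given with differences below are approximate, back-calculated from the test statistic of a fit with the animal as a block. That fit partly shares its estimate of spread across genes.

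Markers of position along the length of the gut differed between the fractions of these animals, and these values stand beside every difference given below. Fabp6 (ENSMUSG00000020405, chr11:43596049-43601540 in GRCm38), which encodes the bile acid binding protein of the ileum, was at 241, 79.2, 77, 383 and 76.4 CPM in the crypt libraries. It was at 0, 0, 0, 0.0536 and 0 CPM in the villus libraries, so that the ileal gene was read in every crypt fraction and in 1 of 5 villus fractions. Slc10a2, the ileal bile acid transporter, was at 46, 15.9, 6.99, 20.4 and 2.62 CPM in crypt and 0.949, 2.34, 1.04, 1.34 and 0.92 in villus. Pdx1, a transcription factor of the proximal small intestine, ran the other way, with 10.1, 8.21, 4.94, 7.18 and 2.81 CPM in crypt and 71.8, 76.9, 63.6, 82.4 and 58 in villus. None of these groups overlapped. Slc40a1, the iron exporter ferroportin of the duodenum, stood at 35.1, 22, 7.02, 25.5 and 6.34 CPM in crypt and 673, 1066, 471, 1152 and 578 in villus. Cybrd1, the duodenal ferric reductase, was 17.2-fold higher in villus, and S100g, a calcium-binding protein of the proximal gut, 39.8-fold higher. Of the short lists of segment genes, 4 of 4 proximal genes were higher in villus and 3 of 3 distal genes higher in crypt. The distal genes summed to between 129 and 458 CPM in crypt and between 13.4 and 34.3 in villus, and the proximal genes to between 288 and 426 CPM in crypt and between 4279 and 9317 in villus. The proximal list includes Lct, lactase, which is also in the brush border list below. In the Vil1-CreER animals 4 of 4 proximal genes were likewise higher in villus, with sums of 148 to 541 CPM in crypt and 2931 to 4944 in villus. The proximal count and sum are therefore not particular to the Rosa26-CreER fractions. Of the distal genes, 2 of 3 were higher in villus in the Vil1-CreER animals and 0 higher in crypt.

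**Figure D1:**
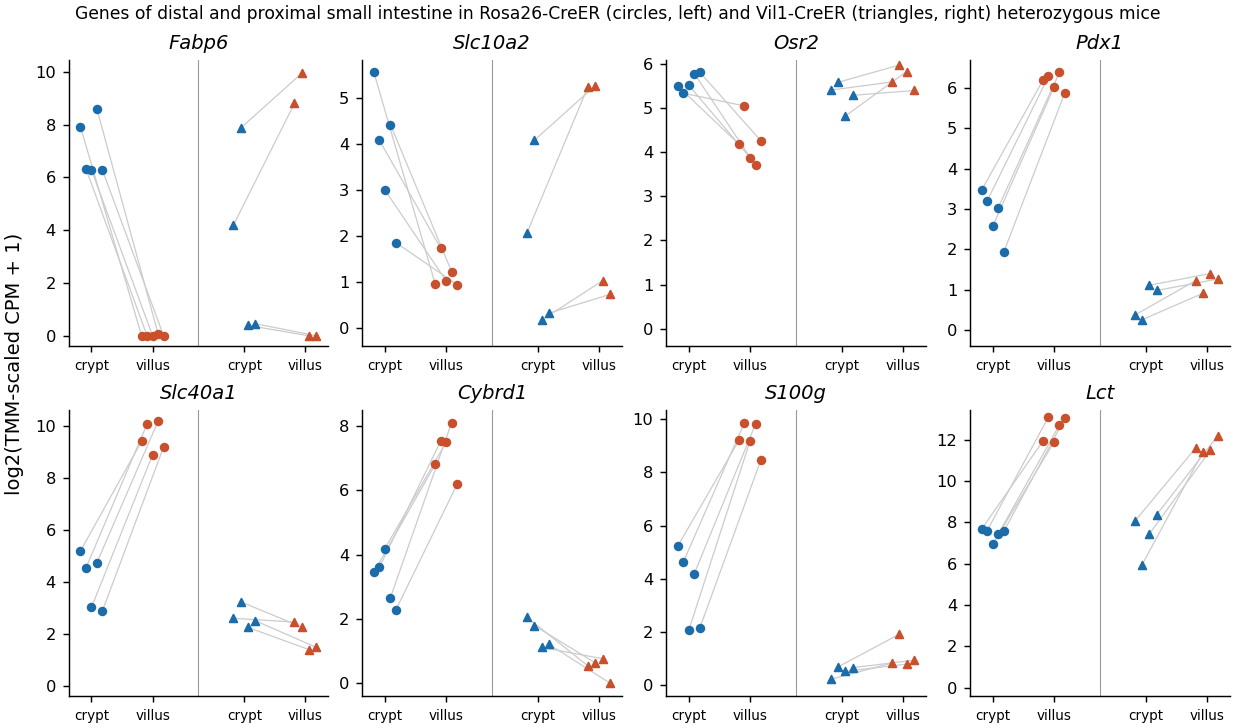
Levels of 8 genes of distal or proximal small intestine as log2(TMM-scaled CPM + 1), 1 point per library with a line joining the tissues of an animal, for Rosa26-CreER heterozygotes on the left and Vil1-CreER heterozygotes on the right. Fabp6 lies between 76.4 and 383 CPM in the 5 Rosa26-CreER crypt libraries and at or near 0 in villus, whereas in the Vil1-CreER villi it lies at 446 and 985 CPM in 2 animals and at 0 in 2.

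In the Vil1-CreER heterozygotes Fabp6 differed between animals more than between tissues. Their 4 crypt libraries had 17.2, 232, 0.314 and 0.374 CPM of Fabp6 and the villus libraries of the same animals 446, 985, 0 and 0, so 2 animals were high in both tissues and 2 were low in both. The difference was 2.58 (log2, edgeR adjusted p = 0.0915). Slc10a2 differed by -3.39 in the Rosa26-CreER animals and by 2.27 in the Vil1-CreER animals, Slc40a1 by 5.59 and -0.98, and Cybrd1 by 4.12 and -2.38. Fgf15, an ileal hormone that restrains bile acid synthesis and that was looked up after its values were seen, averaged 2.52 CPM in the Rosa26-CreER crypts and had no count in any of their villus libraries, at least 16.1-fold less when villus is set to 3 counts per library. In Vil1-CreER animals it was higher in villus by 2.34. In the Rosa26-CreER heterozygotes position along the gut and position along the crypt-villus axis therefore cannot be told apart for genes that also vary along the gut, and values of the Vil1-CreER animals are given beside several results.

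Eif4g2 itself (ENSMUSG00000005610, chr7:111067750-111083030) had nearly equal levels in both tissues. It stood at 359, 358, 371, 335 and 359.6 CPM in crypt and 395, 358, 344, 318 and 339.8 in villus. The difference was -0.02 ± 0.08 (log2, villus minus crypt ± SE; edgeR quasi-likelihood test with the animal as a block, Benjamini-Hochberg adjusted p = 0.797), and the groups overlapped. All differences below carry this sign, so that a positive value means higher in villus. In the homozygotes the mean Eif4g2 level was 87.1 CPM in crypt and 54 in villus, against 355 and 348 in the heterozygotes, so the library labels and the allele went together.

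Most of the transcriptome differed between the tissues. Of 14793 genes tested, 11230 (75.9%) passed an adjusted p of 0.05, 5280 of them higher in villus (35.7%) and 5950 higher in crypt (40.2%). A difference of at least 2-fold was reached by 3282 of the genes higher in villus and 4270 of those higher in crypt. The median difference over all genes tested was -0.10, with quartiles at -1.31 and 0.90. Counts for groups of genes below are to be read against these shares: with 75.9% of all genes called, the number of called members says little, and the direction and size carry the description. In such bulk samples, fewer cells of a type and less RNA per cell cannot be told apart.

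**Figure D2:**
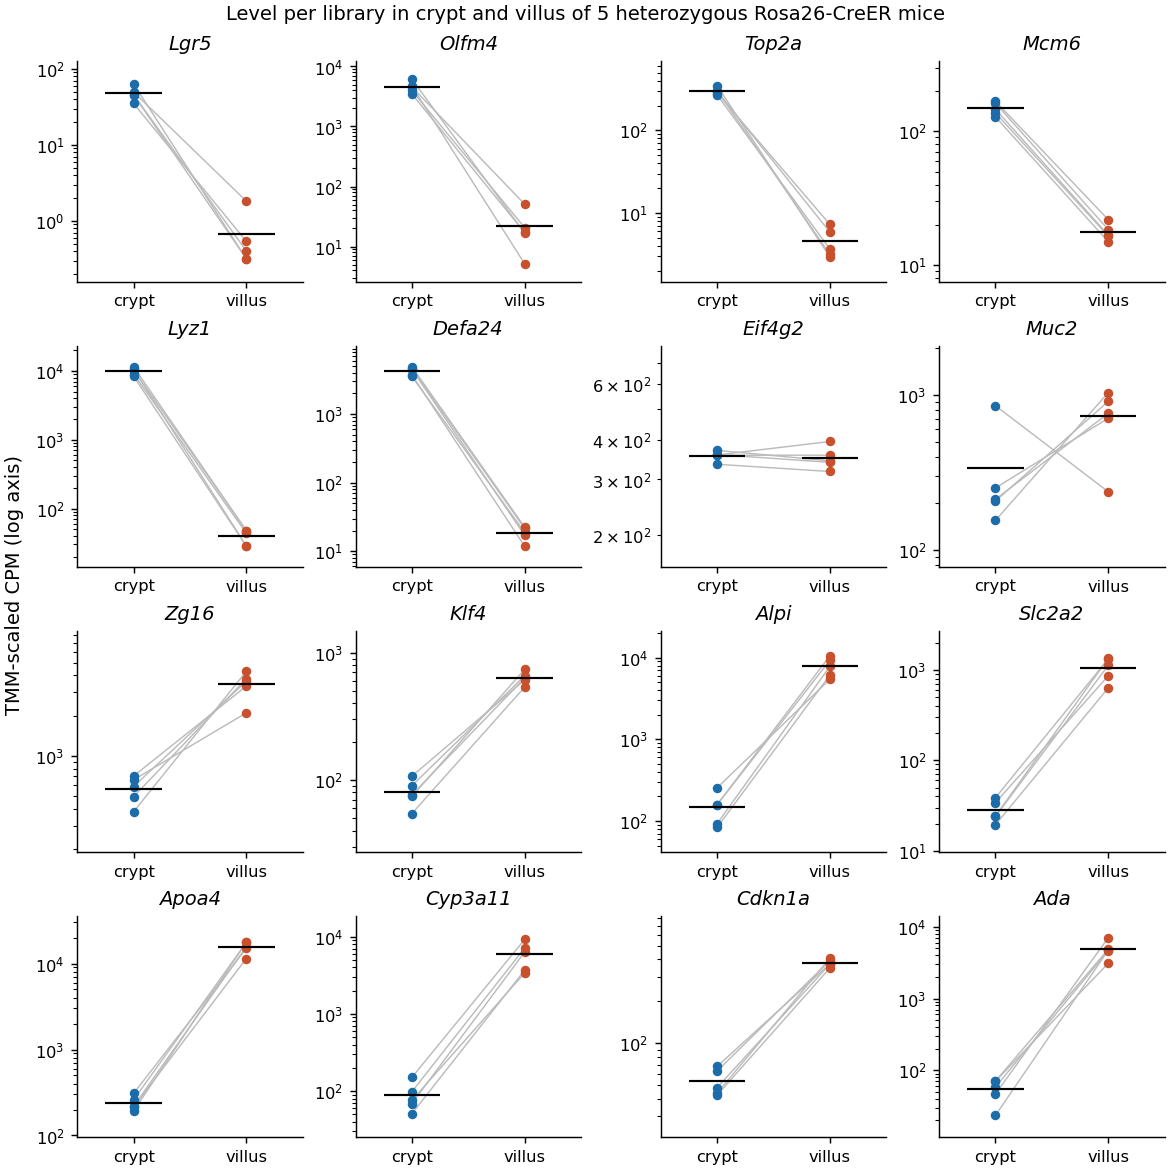
Level of 16 genes per library on a log axis of TMM-scaled CPM, with points for the 5 crypt and 5 villus libraries, grey lines joining the tissues of each animal and black bars for the means. Stem, cell cycle and Paneth genes drop from crypt to villus in every animal, Eif4g2 stays level near 355 CPM, Muc2 splits by animal, and enterocyte genes rise in every animal.

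Genes of the crypt base stem cells were high in crypt in every animal. Lgr5 (ENSMUSG00000020140, chr10:115450311-115587780), the receptor for R-spondins that marks these cells, stood at 45.6, 63.3, 49.6, 35 and 45.6 CPM in crypt and 0.316, 0.315, 1.81, 0.536 and 0.402 in villus. The crypt mean was 70.7-fold the villus mean (-6.30 ± 0.39, adjusted p = 4.5e-06). Olfm4, a secreted glycoprotein of the stem cell zone (chr14:79984081-80023139), was at 3984, 6145, 4558, 3478 and 4675 CPM in crypt and 20.7, 16.8, 50.9, 17.2 and 5.17 in villus, 206-fold lower. Ascl2, the Wnt-driven transcription factor of these cells, was 144-fold lower in villus, and Smoc2 62.2-fold lower. Of 20 stem cell genes tested, 18 were higher in crypt and none higher in villus, with a median of -3.58 against -0.10 over all genes. The remaining pair did not pass the test: Hopx, a marker also made by differentiated cells, had 0.04 (adjusted p = 0.759), and Rnf43, which removes Wnt receptors from the membrane, had 0.22 (adjusted p = 0.266). The summed level of the list was 5371 to 9060 CPM in crypt and 281 to 372 in villus. The villus library of replicate 3 had the highest villus level for 11 of the 20 genes, and without that animal Lgr5 had -6.92, Olfm4 -8.35 and Ascl2 -8.76, against -7.36 for Ascl2 with all 5.

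Wnt pathway genes did not all lean to the crypt. Of 19 tested, 10 were higher in crypt and 4 higher in villus, with a median of -1.60. Wnt3, the ligand that Paneth cells supply, was at 15.6, 14.9, 21.1, 13.3 and 13.9 CPM in crypt and 0.396, 0.36, 0.13, 0.59 and 0.575 in villus (-5.22 ± 0.33). The target genes Axin2, a scaffold of the destruction complex, Myc and Ccnd1 were lower in villus by 5.68-fold, 42.7-fold and 35.7-fold. Axin2 thus kept 34.1, 31.7, 20.5, 33.5 and 22 CPM in villus, while Myc fell to 1.23, 0.675, 4.99, 1.88 and 1.32. Sp5, a target that represses other Wnt targets, had the opposite direction, with 16.4, 22.6, 22.2, 17.6 and 17.2 CPM in crypt and 69.5, 89.9, 67.8, 99.1 and 89 in villus. Notum, an enzyme that inactivates Wnt proteins (2.77), Tcf7l2, the DNA-binding partner of beta-catenin (1.24), and Ctnnb1, beta-catenin itself (0.65), were the other members higher in villus. Sox9, which is needed for Paneth cells, was lower in villus by 10.4-fold.

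Notch genes were mostly higher in crypt, in 11 of 13 tested with a median of -1.65. The receptor gene Notch1 had -2.85 and its target Hes1, a repressor of secretory fate, was at 54, 68.8, 61, 49.1 and 69.9 CPM in crypt and 11.7, 11, 19.7, 14.3 and 14.3 in villus. The ligand gene Dll1 was the exception and was higher in villus by 0.43 ± 0.13, while Dll4 did not pass the test. Atoh1, the factor that opens the secretory lineage, was at 49.5, 37.4, 47.1, 34.4 and 39.9 CPM in crypt and 9.77, 13.7, 18.1, 10.7 and 14.8 in villus. The groups did not overlap (-1.65 ± 0.15, adjusted p = 1.7e-05), but in the Vil1-CreER animals Atoh1 had -0.21 and did not pass the test (adjusted p = 0.333).

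Genes of the BMP and hedgehog pathways ran the other way, with 9 of 11 higher in villus, 2 higher in crypt and a median of 1.45. Ihh (chr1:74945315-74951672), the hedgehog ligand that the epithelium sends to the stroma, was at 39.3, 41.1, 33.9, 37.4 and 38.3 CPM in crypt and 176, 222, 164, 215 and 176 in villus. Its receptor gene Ptch1 was lower in villus by 3.64-fold, so ligand and receptor were on opposite sides. Among the BMP genes, the ligand Bmp2 had 2.36 and the feedback inhibitor Smad7 2.69, and the target genes Id1 and Id3 both had 1.45. Bmp7, another ligand, was the second gene higher in crypt (-5.49 ± 0.35). The Eph receptors and ephrins, which keep crypt and villus cells apart, split as well: of 11 tested, 6 were higher in crypt and 5 higher in villus. Ephb2 stood at 147, 156, 127, 98.6 and 129 CPM in crypt and 16.5, 20.6, 19.3, 19.7 and 14.9 in villus, and Ephb3 had -5.21. The ligand genes Efnb1 (0.99) and Efnb2 (1.98) and the receptor gene Epha2 (3.54) were higher in villus.

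Cell cycle genes were nearly all higher in crypt. All 21 mitosis genes tested were higher in crypt, with a median of -5.00, and so were 25 of 26 replication genes, with a median of -3.59. Top2a, the topoisomerase that untangles replicated DNA, was at 298, 302, 284, 269 and 345 CPM in crypt and 5.85, 3.15, 7.26, 3.65 and 2.93 in villus (-6.09 ± 0.26, 65.6-fold). Cdk1, the kinase that drives entry into mitosis, was at 51.7, 57.5, 57.2, 52.8 and 60.4 CPM in crypt and 0.949, 0.54, 4.08, 1.18 and 0.862 in villus. Ccnb2, a cyclin that activates it, was at 56.7, 66, 73.8, 63.6 and 74.9 CPM in crypt and 1.58, 0.989, 7.64, 1.72 and 0.402 in villus. In villus, replicate 3 was the highest library for 20 of the 21 mitosis genes, including both of these, and without that animal Ccnb2 had -5.78 against -5.14. Mki67, the proliferation antigen, had -4.69.

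Among the replication genes, Mcm6, a subunit of the helicase that opens origins, stood at 147, 168, 137, 128 and 163 CPM in crypt and 16.8, 21.9, 16.5, 15 and 18.5 in villus (8.37-fold). Pola1, the catalytic subunit of the polymerase that lays primers, was at 30.9, 38.2, 29.5, 25 and 35.2 CPM in crypt and 0.435, 0.36, 1.62, 0.214 and 0.402 in villus (52.4-fold). Mcm6 thus kept a measurable level in every villus library and Pola1 stayed below 2 CPM in all of them. Without replicate 3 Pola1 had -6.49 against -5.86. Pcna, the sliding clamp, changed less, by -1.21. The summed mitosis genes were 1451 to 1836 CPM in crypt and 32.1 to 136 in villus, and the summed replication genes 1238 to 1599 and 200 to 227.

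The promoters of these genes were read from RefSeq, as the 250 bases upstream of the annotated start in GRCm38.p6, on the strand of the gene. They are shown because cell cycle genes are known to be controlled through 2 short elements. The E2F element was searched as TTTCCCGC or TTTGGCGC and the CHR element of mitosis genes as TTTGAA or TTCGAA, on both strands. Capitals mark the matches, which are descriptions of the letters and not shown sites of binding. Mcm6 (chr1:128359706-128359955, minus strand) and Pola1 (chrX:93632156-93632405, minus strand) hold E2F letters, and Cdk1 (chr10:69352913-69353162, minus strand) and Ccnb2 (chr9:70421555-70421804, minus strand) hold CHR letters:
Mcm6: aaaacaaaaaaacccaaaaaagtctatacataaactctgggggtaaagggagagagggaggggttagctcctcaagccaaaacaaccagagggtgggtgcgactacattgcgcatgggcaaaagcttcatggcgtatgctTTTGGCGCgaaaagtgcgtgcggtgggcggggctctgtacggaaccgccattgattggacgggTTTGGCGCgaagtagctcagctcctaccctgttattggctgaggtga
Pola1: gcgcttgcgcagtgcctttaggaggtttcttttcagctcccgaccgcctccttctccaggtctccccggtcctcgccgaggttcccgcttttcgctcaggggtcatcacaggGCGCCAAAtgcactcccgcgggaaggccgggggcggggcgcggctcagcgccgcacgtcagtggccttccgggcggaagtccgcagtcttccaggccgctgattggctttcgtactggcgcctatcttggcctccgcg
Cdk1: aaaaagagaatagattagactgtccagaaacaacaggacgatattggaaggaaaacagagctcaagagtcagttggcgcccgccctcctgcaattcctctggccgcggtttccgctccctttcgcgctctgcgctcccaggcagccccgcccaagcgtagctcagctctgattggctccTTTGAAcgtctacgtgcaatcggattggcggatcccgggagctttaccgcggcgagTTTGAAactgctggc
Ccnb2: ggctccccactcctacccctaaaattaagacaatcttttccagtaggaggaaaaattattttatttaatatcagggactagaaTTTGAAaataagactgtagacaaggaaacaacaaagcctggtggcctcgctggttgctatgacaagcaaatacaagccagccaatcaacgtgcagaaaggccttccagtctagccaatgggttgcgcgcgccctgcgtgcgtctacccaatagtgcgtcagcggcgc

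The last match ends 39 bases before the start in Mcm6, which has 2 matches, and 130 bases before it in Pola1. In Cdk1, also with 2 matches, that distance is 9 bases, and in Ccnb2 it is 161. E2F letters were in 5 of 21 replication promoters (23.8%), against 2.47% of the 10682 promoters of tested genes, 3.13% of those higher in crypt and 1.81% of those higher in villus. They were also in 3 of 17 ribosome biogenesis promoters (17.6%) and 2 of 14 stem cell promoters (14.3%). Mcm5, Mcm7, Cdc6 and Cdca7, all higher in crypt, were among other list genes with them. So were Hopx, the stem cell gene beside Cdca7 (0.04), and the bicarbonate transporter gene Slc4a4, higher in villus (1.79). CHR letters were in 8 of 17 mitosis promoters (47.1%), against 12.5% of all, 13.6% of those higher in crypt and 11.5% of those higher in villus. They were about as frequent in the drug metabolism list described below, in 10 of 23 promoters (43.5%), whose genes were higher in villus. The median GC content of those 23 promoters was 45.6%, against 59.6% over all promoters. TCF/LEF letters (CTTTGATC) were in 0 of 14 stem cell promoters, 0.693% of all promoters, 0.607% of those higher in crypt and 0.703% of those higher in villus.

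Inhibitors of the cell cycle were mixed. Of 9 tested, 5 were higher in villus and 2 higher in crypt. Cdkn1a, which encodes p21, was at 68.3, 43.9, 48.1, 63.3 and 42.4 CPM in crypt and 372, 409, 371, 393 and 348 in villus (2.86 ± 0.13), with no overlap. Cdkn2b, the p15 inhibitor, had 1.81 and Cdkn1c, the p57 inhibitor, 1.72.

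Genes that build ribosomes had the same direction. All 20 ribosome biogenesis genes tested were higher in crypt, with a median of -3.57. Ncl, the nucleolar protein nucleolin, was at 415, 448, 427, 373 and 458 CPM in crypt and 41.3, 30.4, 57.6, 29 and 35 in villus. Fbl, the methyltransferase of ribosomal RNA, was lower in villus by 16.8-fold and Utp20, a processing factor, by 22.4-fold. Bop1, another processing factor, differed least, by -1.01. Nucleotide and polyamine synthesis genes were alike: 17 of 18 were higher in crypt, with a median of -3.82. Impdh2, the enzyme that commits to guanine nucleotides, had -5.28, Paics, of purine synthesis, -4.6, and Cad, which starts pyrimidine synthesis, -3.87. Odc1, the first enzyme of polyamine synthesis, had -0.13 and did not pass the test (adjusted p = 0.163).

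Translation initiation factors, the group to which Eif4g2 belongs, had smaller differences than the genes that build ribosomes. Of 22 tested, 15 were higher in crypt and 4 higher in villus, with a median of -0.62. Eif3a, the core of the eIF3 complex, had -1.92, Eif4b, a helper of the helicase, -1.28, and the helicase gene Eif4a1 -1.01. Its paralog Eif4a2 had the opposite sign, 1.34. Eif6, which keeps the large ribosomal subunit from joining too early, was at 169, 155, 151, 160.2 and 146 CPM in crypt and 413, 434, 428, 412 and 379 in villus. Of the other scaffold genes, Eif4g1 had 0.08 (adjusted p = 0.482) and Eif4g3 -0.21 (adjusted p = 0.0359), a call that 9 of the 12 other settings did not give.

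Histone modifiers, which the title of the series names as products of eIF4G2-dependent translation, had no common direction. Of 21 tested, 10 were higher in crypt and 5 higher in villus, and the median was -0.22. The 5 became 3 without replicate 2 and 1 without replicate 3, 4 or 5. Ep300, the acetyltransferase p300, was at 102, 109, 90.3, 79.3 and 90.5 CPM in crypt and 98.8, 122, 104, 113 and 132 in villus, and the ranges overlapped (0.28 ± 0.10, adjusted p = 0.0368). Its relative Crebbp had 0.33 (adjusted p = 0.04). Both calls were lost when single animals were left out, and Crebbp had -0.03 in the animals of replicates 1 and 2 alone. Larger differences were found in another acetyltransferase pair: Kat2a was at 42.4, 51.5, 41.4, 33.7 and 46.7 CPM in crypt and 2.89, 2.11, 8.29, 2.73 and 2.53 in villus, whereas Kat2b was at 23.3, 22.4, 26, 28 and 27.2 and 66.3, 58.5, 56.1, 57.6 and 57.8. The methyltransferase Kmt2d had 0.84 (adjusted p = 0.0272) and lost its call without replicate 3, 4 or 5. Genes that copy or spread repressive marks were higher in crypt, Ezh2 of the Polycomb complex by 3.98-fold, Dnmt1, the maintenance DNA methyltransferase, by 15.9-fold and Uhrf1, which guides it, by 47.7-fold. The deacetylase gene Hdac2 had -2.2.

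Paneth cell genes had the largest median difference of the 49 lists, with 16 of 16 higher in crypt and a median of -8.20. Lyz1 (chr10:117287797-117292868), the lysozyme of Paneth granules, stood at 9061, 11553, 10597, 10385 and 8419 CPM in crypt and 43.8, 47.5, 28.5, 47.6 and 28.3 in villus, a 256-fold difference. Defa24, an alpha-defensin (chr8:21734494-21735471), was at 3535, 4893, 4489.7, 4606 and 3739.7 CPM in crypt and 18.9, 22.5, 17.1, 21.6 and 11.8 in villus. The defensins share near-identical copies on chromosome 8, so the level of any 1 of them is uncertain. Mmp7, the protease that activates defensins, had -7.6, Itln1, a lectin, -5.17, and Pnliprp2, a lipase of the zymogen granule, -1.96. The list summed to 20956 to 26322 CPM in crypt and 172 to 237 in villus. In the Vil1-CreER animals the list median was -4.69, and Lyz1 had -5.07 against -8.03 here.

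Goblet cell genes did not share a direction. Of 15 tested, 9 were higher in crypt and 4 higher in villus. Spdef, the factor that matures goblet cells (-1.79), Agr2, a disulfide isomerase needed to fold mucin (-2.37), and Spink4, a secreted inhibitor (-2.95), were higher in crypt. Zg16, a lectin of the mucus, was at 660.0, 380.5, 494, 704 and 588 CPM in crypt and 2098, 4294, 3781, 3328 and 3628 in villus, and Clca1, a mucus protease, had 1.92. Tff3, the trefoil factor, had 0.55. Muc2, the gel-forming mucin, was at 852, 251, 212, 155 and 206 CPM in crypt and 237, 707, 761, 1035 and 909 in villus. It was higher in crypt in replicate 1 and higher in villus in the other 4 animals (1.44 ± 0.65, adjusted p = 0.079). Without replicate 1 the difference was 1.99, with an adjusted p of 0.000113.

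In the enteroendocrine lineage the early regulators and the hormones lay on different sides. Neurog3, the factor that starts the lineage, was at 3.95, 6.64, 6.11, 4.43 and 6.45 CPM in crypt and 0.119, 0, 0.259, 0 and 0.0575 in villus (-6.02, and -6.68 without replicate 3). Of 16 regulators and granule genes, 10 were higher in crypt and 1 higher in villus, Scg2, a granin (1.78), while the chromogranin genes Chga and Chgb had -0.69 and -0.75. Of 10 hormone genes, 7 were higher in villus and 2 higher in crypt. Sct, secretin, was at 11.5, 7.31, 11.2, 9.39 and 9.95 CPM in crypt and 55.1, 77.1, 95.2, 57.5 and 63 in villus, and Cck, cholecystokinin, had 2.25. Nts, neurotensin, had 2.09 and Gip, the glucose-dependent insulinotropic peptide, 1.43. Gcg, which encodes the GLP-1 precursor, was at 23.9, 15.2, 35.6, 23.5 and 46.2 CPM in crypt and 6.53, 5.71, 5.12, 6.11 and 4.54 in villus, and Tac1, substance P, had -4.65. The villus library of replicate 3 was the highest for 14 of the 16 regulators and 8 of the 10 hormones. Hormone genes also vary along the gut, and the part of position was not tested.

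Tuft cell genes depended on the animals. Of 14 tested, 6 were higher in villus and none higher in crypt, with a median of 0.73. With replicates 3, 4 and 5 alone 11 of 15 were higher in villus, with a median of 1.27, and with replicates 1 and 2 alone 3 of 14 were higher in villus and 4 higher in crypt, with a median of -0.118. Siglecf, a surface lectin (2.42), Ltc4s, of leukotriene synthesis (2.57), and Il17rb, the receptor for IL-25 (2.14), were among the 6. Dclk1, the kinase that marks these cells, was at 52.3, 45, 33.4, 23 and 28.5 CPM in crypt and 16.9, 34.5, 117, 39.5 and 43.3 in villus (0.26 ± 0.46, adjusted p = 0.626). Without replicate 3 its difference was -0.14. That villus library was the highest for all 14 tuft genes, whose sum ran from 136 to 701 CPM over the villus libraries and from 116 to 209 over the crypt libraries.

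Transcription factors of the intestine separated into crypt and villus members. Of 28 tested, 18 were higher in villus and 7 higher in crypt. Klf4, which arrests division, was at 107, 74.2, 76.6, 90.1 and 54.4 CPM in crypt and 612, 739, 632, 658 and 537 in villus, while its relative Klf5 had -0.6. Hnf4g, a nuclear receptor of enterocytes, was at 112, 88.8, 83.9, 124 and 111 CPM in crypt and 609.9, 484, 288, 429 and 425 in villus, more than its paralog Hnf4a, which had 0.43. Prdm1 (3.46), a repressor, the leucine zipper factor Maf (2.82), and Creb3l3, a regulator of lipid genes (4.61), were higher in villus. Cdx1, a homeobox factor, had -1.71, and Cdx2 did not pass the test (-0.16, adjusted p = 0.142). The forkhead genes Foxa1, Foxa2 and Foxa3 were all higher in crypt, at -2.23, -3.08 and -2.23, as was the nuclear receptor gene Nr5a2 (-2.29).

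Brush border enzymes were higher in villus without exception among the 17 tested, with a median of 3.74. Alpi, the intestinal alkaline phosphatase, was at 256, 159, 83.7, 159 and 93 CPM in crypt and 5454, 9285, 6129.9, 10553 and 7819.8 in villus (52.3-fold). Treh, which splits trehalose, was at 55.3, 40.2, 31.3, 48.6 and 38.6 CPM in crypt and 1571, 2390.2, 1528, 2258 and 2096 in villus (46-fold). Mme, the peptidase neprilysin, had 5.0, Lct, lactase, 5.1, and Sis, sucrase-isomaltase, 3.4. Naaladl1, a dipeptidase, differed least, by 1.58. The list summed to between 2717 and 5694 CPM in crypt and between 36795 and 63753 in villus. The promoters of Alpi (chr1:87101607-87101856, minus strand) and Treh (chr9:44672983-44673232, plus strand) are shown because both hold the letters CAAAGTCCA (TGGACTTTG on the other strand), an element bound by the HNF4 nuclear receptors, in capitals:
Alpi: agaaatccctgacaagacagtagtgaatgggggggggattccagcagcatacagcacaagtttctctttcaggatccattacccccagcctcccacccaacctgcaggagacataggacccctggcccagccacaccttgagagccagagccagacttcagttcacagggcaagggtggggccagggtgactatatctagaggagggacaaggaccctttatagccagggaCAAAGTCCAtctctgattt
Treh: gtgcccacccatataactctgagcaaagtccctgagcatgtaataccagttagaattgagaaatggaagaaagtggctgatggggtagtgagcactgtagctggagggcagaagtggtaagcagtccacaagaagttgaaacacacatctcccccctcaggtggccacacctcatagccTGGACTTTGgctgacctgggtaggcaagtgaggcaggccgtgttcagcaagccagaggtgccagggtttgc

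The match ends 10 bases before the start in Alpi and 62 bases before it in Treh. These letters were rare, in 0.431% of all promoters. They were in 0.678% of the promoters of genes higher in villus, in 0.257% of those higher in crypt, and in 1.42% of the 1058 promoters of genes at least 4-fold higher in villus. Of 14 brush border promoters 2 held them, and so did 2 of 23 drug metabolism promoters, Cyp3a11 and Cyp2c65, and the cystine transporter gene Slc3a1. CDX letters (TTTATGG or TTTATTG) were in 4.0% of all promoters, 4.17% of those higher in villus and 3.76% of those higher in crypt. They were in 6.43% of the promoters of genes at least 4-fold higher in villus and 3.53% of those at least 4-fold higher in crypt, in 3 of 18 lipid absorption promoters (16.7%) and in 2 of 14 brush border promoters.

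Structural genes of the microvillus were higher in villus in 14 of 15 cases, with a median of 2.65. Vil1, the actin bundler villin, had 2.65, Espn, another bundler, 3.46, and Ush1c, which links the tips of microvilli, 1.77. Pdzk1, a scaffold for transporters, had 4.0. The exception was Tmigd1, an adhesion molecule of mature enterocytes, with -0.11 (adjusted p = 0.851).

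All 24 genes of lipid absorption were higher in villus, with a median of 3.80. Apoa4, an apolipoprotein of chylomicrons (chr9:46240696-46243459), stood at 215, 259.9, 219, 309 and 192 CPM in crypt and 11432, 17576, 15696, 14966 and 17744 in villus (6.02 ± 0.21, 64.8-fold). Mttp, which loads fat onto apolipoprotein B, was at 669.7, 438, 341, 538 and 509 CPM in crypt and 9139, 9915, 6252, 9665 and 8191 in villus. Apob had 4.27, Cd36, a fatty acid receptor, 4.19, and Fabp1, a fatty acid binding protein, 4.27. Plin2, the coat of lipid droplets, had the smallest of these differences at 0.73 (adjusted p = 0.00973) and lost its call without replicate 1 (0.53). The list summed to 3045 to 5129 CPM in crypt and 64418 to 84018 in villus.

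Transporters of sugars, amino acids and peptides were mostly higher in villus. Of 19 tested, 15 were higher in villus and 3 higher in crypt. Slc2a2, the basolateral glucose transporter, was at 34, 24.2, 19.4, 23.9 and 38.6 CPM in crypt and 860.0, 1343, 631, 1122 and 1324 in villus. Slc5a1, the sodium-glucose cotransporter, had 3.92, Slc2a5, the fructose transporter, 5.31, and Slc15a1, the peptide transporter, 3.9. The 3 higher in crypt were amino acid transporter genes: Slc7a5, the light chain for large neutral amino acids (-4.04), Slc1a5, for glutamine (-2.99), and Slc1a1, for glutamate (-2.25). Of 22 ion and vitamin transporters, 19 were higher in villus and 3 higher in crypt. Slc46a1, the folate transporter, was 73.9-fold higher in villus, and Cftr, the chloride channel of secreting cells, was at 163, 181, 150.2, 136 and 174 CPM in crypt and 56.6, 62.1, 32, 52.3 and 47.8 in villus. The 3 genes of this list with opposite calls in the Vil1-CreER animals, Slc10a2, Slc40a1 and Cybrd1, are given above.

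Genes of the villus tip were higher in villus in 6 of 7 cases. Ada, adenosine deaminase, was at 70.2, 58.3, 46.8, 70.6 and 23.5 CPM in crypt and 3099.6, 4658, 7030.0, 4849 and 4718 in villus (6.55 ± 0.39), and Nt5e, the nucleotidase that makes adenosine outside the cell, had 4.72. Egfr, the receptor for epidermal growth factor, had 0.38 and did not pass the test (adjusted p = 0.181). Antimicrobial and mucosal defence genes outside Paneth cells were split, 8 of 15 higher in villus and 5 higher in crypt. Reg1, a secreted lectin, had 5.8, Reg3b, which kills bacteria, 2.07, and Pigr, which carries antibodies across the cell, 1.69. Gsdmc4, a pore-forming protein (-5.6), and Duox2, an oxidase (-1.55), were higher in crypt.

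Genes of central metabolism were mostly higher in villus, with exceptions inside each pathway. Of 20 genes of glycolysis and gluconeogenesis, 16 were higher in villus and 3 higher in crypt. Pck1, the cytosolic carboxykinase of gluconeogenesis, was at 13.1, 12.2, 10.2, 10.1 and 11.1 CPM in crypt and 228, 376, 148, 138 and 307 in villus, and Pck2, its mitochondrial counterpart, was at 78.3, 94.2, 90.5, 73.1 and 85 and 5.5, 5.49, 7.71, 7.18 and 5.23. The paralogs therefore had opposite directions with no overlap. Khk, fructokinase, had 3.52, and Hk2, a hexokinase, -1.72. Of 16 fatty acid oxidation and ketone genes, 13 were higher in villus and 2 higher in crypt. Pdk4, which restrains pyruvate use, had 4.26.

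Sterol synthesis genes had 8 of 16 higher in villus and 4 higher in crypt, with a median of 0.39. In the Vil1-CreER animals 3 were higher in villus and 8 higher in crypt. Sc5d, a late desaturase of cholesterol synthesis, had 2.36, and Idi1, an early enzyme, -1.06. Insig1, which holds back the pathway, had 1.52 here and -0.38 there. Of 10 retinoid genes 6 were higher in villus and 2 higher in crypt. Rbp2, the cellular retinol-binding protein of enterocytes, was at 273, 209, 181, 237 and 253 CPM in crypt and 5900.3, 5277, 4305, 4278 and 4667 in villus, and the retinal oxidases Aldh1a1 and Aldh1a2 had 3.59 and -3.74. In citrulline and arginine synthesis, 3 of 12 genes were higher in villus and 5 higher in crypt. Cps1, the carbamoyl phosphate synthetase that feeds citrulline synthesis, was at 2102, 2655, 2112, 1827 and 2358 CPM in crypt and 463, 340.1, 264, 363 and 364 in villus, while Arg2, an arginase, had 2.83.

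All 25 genes of drug and xenobiotic metabolism tested were higher in villus, with a median of 4.22. Cyp3a11, a cytochrome P450 (chr5:145854426-145879964), was at 75.9, 97.8, 50.9, 150.1 and 68.8 CPM in crypt and 3374, 7097, 3663, 9164 and 6285 in villus (66.7-fold). Cyp1a1, the target of the aryl hydrocarbon receptor, had 6.66, Cyp2b10, a target of the receptor CAR, 5.61, and Abcc2, an efflux pump, 4.22. Cytochrome P450 and carboxylesterase genes lie in clusters of close relatives, so reads may be divided among copies. Tamoxifen was given to every animal, and its part in these levels was not tested.

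Junction, keratin and adhesion genes had members on both sides. Of 8 claudins, 5 were higher in villus and 2 higher in crypt. Cldn2, a pore for cations and water, was at 189, 187, 182, 171 and 171 CPM in crypt and 10.6, 3.91, 12.3, 12.3 and 2.82 in villus, and Cldn4, a sealing claudin, at 33.6, 23.8, 28.1, 47.5 and 18.6 and 386, 601, 879, 732 and 487. Krt20, the keratin of mature cells, had 3.77, and Krt19 and Krt7 had -1.62 and -2.36. Of 15 matrix and adhesion genes, 11 were higher in villus and 3 higher in crypt. Lama3, a chain of laminin-332, had 4.35, and the paralogs Ceacam20 and Ceacam10 had 3.97 and -3.39. All 8 genes of the MHC class II list were higher in villus, with a median of 2.04. That list holds Ubd, a ubiquitin-like gene with the largest difference (3.59), beside genes of antigen presentation. H2-Aa, which encodes a class II chain, was at 365, 149, 256, 390.5 and 311 CPM in crypt and 1826, 1048, 2117, 2585 and 2324 in villus. Of 12 immediate early and heat shock genes 11 were higher in villus and 1, Ier2, higher in crypt (-0.31). The heat shock members were Hspa1a (1.17) and Hspa1b (1.22). Fos was at 22.9, 19.3, 20.7, 21.9 and 9.87 CPM in crypt and 305, 520.4, 414, 341 and 231 in villus, and Jun, its partner in AP-1, had 2.42. Such genes also respond quickly to tissue handling, and the part of handling was not tested.

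Markers of cells outside the epithelium were present in both fractions at uneven levels. The fibroblast genes summed to between 55.3 and 1232 CPM in crypt and between 9.53 and 165 in villus, and 7 of 10 were higher in crypt. Dcn, the matrix proteoglycan decorin, was at 59.3, 59.6, 274, 84.1 and 8.85 CPM in crypt and 0.119, 2.02, 9.07, 4.93 and 1.96 in villus, so replicate 3 was high in both tissues. Smooth muscle genes summed to 0.822 to 3.66 CPM in crypt and 1.07 to 8.36 in villus, and neural genes stayed below 1 CPM in every library. Genes of intraepithelial lymphocytes, the T cells that lie between epithelial cells, summed to 161 to 933 CPM in crypt and 578 to 1579 in villus. Of 15 of these, 8 were higher in villus and none higher in crypt, but leaving out 1 animal gave 2 of 15 without replicate 1, 0 without replicate 2, 2 without replicate 3, 12 without replicate 4 and 2 without replicate 5. Gzma, a granule protease, was at 82.4, 47.7, 52.5, 312 and 121 CPM in crypt and 252, 216, 576, 209 and 302 in villus, with overlap, and lost its call without replicate 1, 2, 3 or 5. Genes of B and plasma cells summed to 111 to 374 CPM in crypt and 25.9 to 745 in villus, with 5 of 9 higher in crypt. That count was 3 without replicate 1, 1 without replicate 2, 7 without replicate 3, 1 without replicate 4 and 2 without replicate 5. The villus library of replicate 3 was the highest villus library for all 15 lymphocyte genes, all 9 B and plasma cell genes and 9 of 10 fibroblast genes. By comparison, 10 epithelial genes summed to 7567 to 8635 CPM in crypt and 12848 to 15287 in villus, with Epcam, the adhesion molecule of epithelia, at 1.34. The part of other cells in the differences above was not tested.

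**Figure D3:**
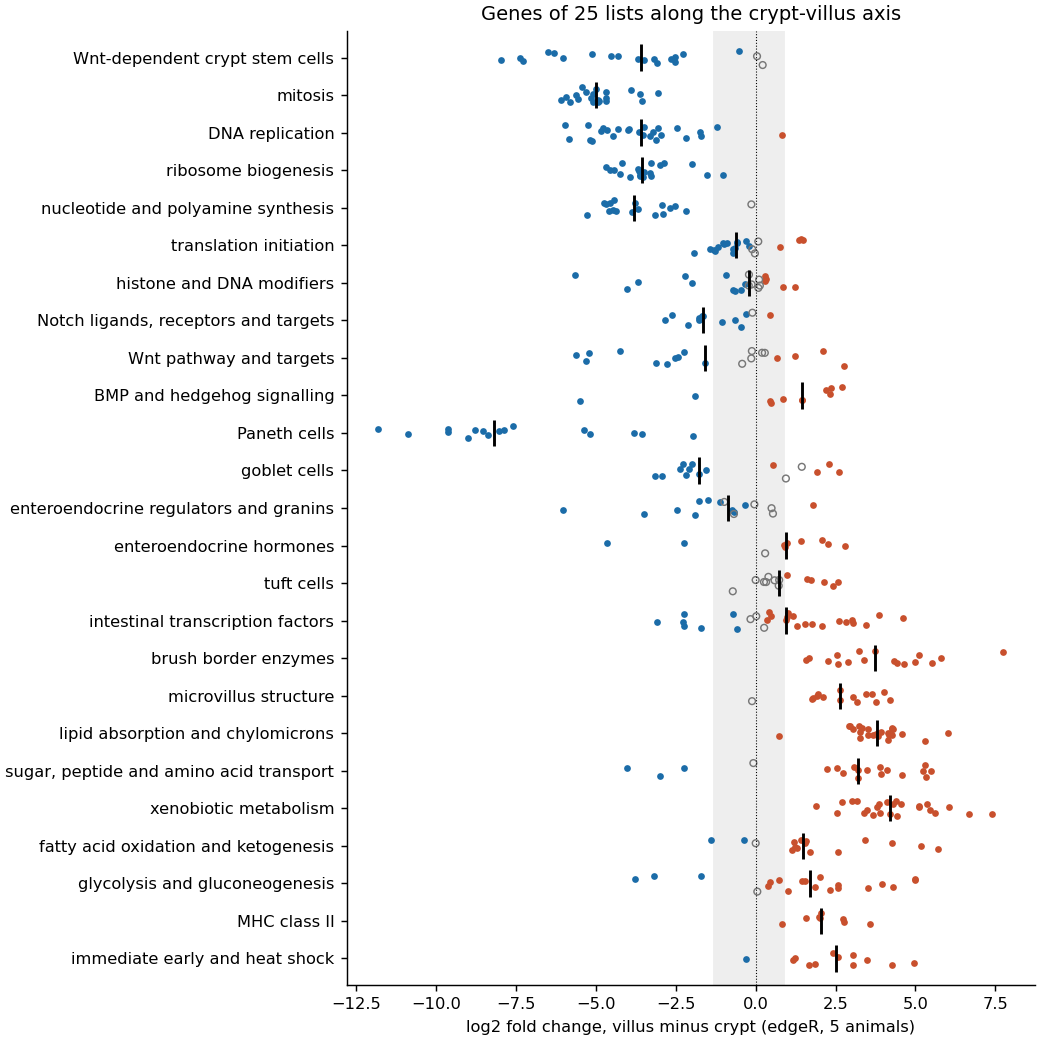
Each point is the log2 difference, villus minus crypt, of 1 gene of a list, in orange where it was called higher in villus, in blue where called higher in crypt and open where not called, with a black bar at the list median and a grey band over the quartiles of all genes (-1.31 to 0.90). The lists run from stem cell and mitosis genes, with medians of -3.58 and -5.00, to brush border, lipid and xenobiotic genes, with medians of 3.74, 3.80 and 4.22.

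By size alone, among called genes whose average level was at least 5 on the log2 CPM scale, the 12 with the largest positive differences were Tmprss15, Akp3, Cyp2c29, Paqr9, Cyp1a1, Aqp8, Ada, Slc19a3, Otop3, Sult6b2, Enpp3 and Slc46a1. Tmprss15 (chr16:78953008-79091097), the enteropeptidase that activates trypsinogen, was at 7.04, 5.52, 2.19, 2.31 and 1.25 CPM in crypt and 499, 919, 588, 764 and 650.0 in villus (7.75 ± 0.48, 187-fold). Akp3, a second alkaline phosphatase, had 7.71 ± 0.92, and Slc19a3, a thiamine transporter, 6.48 ± 0.36. In the Vil1-CreER animals Tmprss15 had 7.06 and Akp3 3.56, but the levels differed between the sets. Akp3 averaged 12316 CPM in the Rosa26-CreER villi and 7.04 in the Vil1-CreER villi. Sult6b2 averaged 469 and 5.63 CPM, Tmprss15 684 and 38.4, and Enpp3 3063 and 1193. The part of position along the gut in these levels was not tested. The 12 with the largest negative differences were Fabp6, Mptx2, Ang4 and 9 alpha-defensins (Defa32, Defa2, Defa21, Defa20, Defa22, Defa34, Defa29, Defa17 and Defa37). Mptx2, a pentraxin of Paneth cells, had -9.63 ± 0.37 and Ang4, an antimicrobial ribonuclease, -9.01 ± 0.36. Defa32 had no count in any villus library and a crypt mean of 408 CPM, a difference of at least 2610-fold when villus is set to 3 counts per library.

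The same axis was measured independently in the Vil1-CreER heterozygotes. There 10483 of 15757 genes (66.5%) were called, 5047 higher in villus and 5436 higher in crypt. Of 14190 genes tested in both sets, 9028 were called in both, which is 83.1% of the 10860 called in the Rosa26-CreER and 91.3% of the 9885 called in the Vil1-CreER animals. The direction was the same for 8958 of them (99.2%) and opposite for 70. Across genes, which are not independent replicates, the differences of the 2 sets had a correlation of 0.922. The stem list had a median of -3.61 and 19 of 20 genes higher in crypt, and mitosis -3.92 with 21 of 21. Brush border genes had a median of 4.05 and lipid absorption genes 3.09, with 23 of 24 higher in villus. Genes with opposite calls in the 2 sets included Slc10a2, Slc40a1, Cybrd1, Insig1 and Osr2, a distal transcription factor (-1.42 and 0.43). Without 1 of the 4 Vil1-CreER animals, Slc40a1, Cybrd1, Insig1 and Osr2 could each lose the call there. Other proximal genes had the same sign in both sets but a smaller value in the Vil1-CreER animals, as Pdx1 (3.51 and 1.25), S100g (5.8 and 1.42) and Scarb1, a lipoprotein receptor (4.27 and 0.63). Tmigd1, given above with -0.11, had 3.98 in the Vil1-CreER animals. The sets differ in driver, in time after tamoxifen and in the markers of position along the gut given above. Their libraries also differ in mitochondrial share, at 6.24 to 12.4% against 17.5 to 30.8% of counts in crypt. In villus it was 2.74 to 24.5% against 9.71 to 24.3%. These differences between the sets cannot be told apart.

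**Figure D4:**
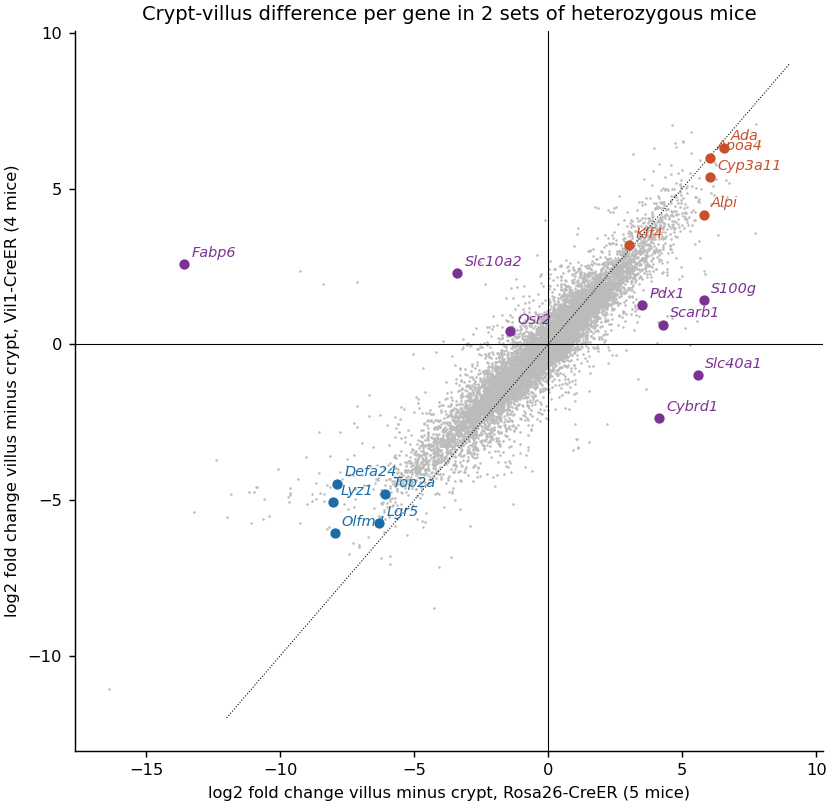
Each grey point is 1 gene, placed by its log2 difference villus minus crypt in 5 Rosa26-CreER mice (horizontal axis) and 4 Vil1-CreER mice (vertical axis), with the diagonal dotted and selected genes named. Stem, Paneth and enterocyte genes lie near the diagonal or on the same side of 0, while the segment genes in purple, such as Slc40a1 at 5.59 and -0.98, leave it.

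Where the crypt-villus difference depended on the genotype was tested as an interaction over 18 libraries of 9 animals, the 5 heterozygotes and 4 homozygotes with both tissues. The interaction shares the 10 heterozygous libraries with the comparison above. Of 16514 genes tested, 772 (4.67%) were called, 506 with a more positive and 266 with a more negative villus minus crypt difference in homozygotes. Lgr5 averaged 47.7 CPM in heterozygous and 4.9 in homozygous crypts, and 0.665 and 0.506 CPM in the villi. The interaction was 3.12 ± 0.60 (adjusted p = 0.0206), so the crypt-villus difference was smaller in homozygotes. Olfm4 averaged 4550 CPM in heterozygous and 263 in homozygous crypts, against 21.8 and 8.84 in villi (3.44 ± 0.68). Each of these calls was lost in 4 of 13 alternative fits, and 4 and 3 of those, respectively, left out 1 animal. Slc12a2, a chloride cotransporter of crypt cells, went from 806 to 236 in crypts and from 9.47 to 17.3 in villi. Of the 20 stem cell genes, 7 had a positive interaction call, with a median of 1.34, as had 6 of 16 Paneth genes. None of the 17 brush border and 24 lipid absorption genes had one. Positive calls made up 3.06% of all genes tested, so few or none would be found in lists of that size.

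The calls of Slc12a2, Guca2a, Slc37a2, Slc16a6 and Lamb3 held under every alternative that was run. By size, the 5 genes with the largest positive interaction were Defa23, Guca2a, Defa21, Pnliprp2 and Defa17. Of 13 alternative fits, Defa17 and Defa21 each lost the call in 8, Pnliprp2 in 7 and Defa23 in 6. Guca2a, the precursor of guanylin, which regulates salt and water secretion, averaged 194 CPM in heterozygous crypts and 31 in heterozygous villi, but 191 and 547 in homozygous crypts and villi (4.17 ± 0.42, adjusted p = 0.00312). The direction of its crypt-villus difference was thus opposite in the genotypes of the Rosa26-CreER animals. In the Vil1-CreER heterozygotes Guca2a averaged 69.35 CPM in crypt and 107 in villus, with overlap (0.53, edgeR adjusted p = 0.177). The higher crypt level of the Rosa26-CreER heterozygotes was therefore not seen in that other heterozygous set. The 5 genes with the largest negative interaction were Slc37a2, Ephx1, Slc16a6, Lamb3 and Gsta1, of which Ephx1 and Gsta1 each lost the call in 5 of the 13. Slc37a2, a sugar phosphate transporter, averaged 2.13 and 110 CPM in heterozygous crypts and villi and 5.56 and 22.3 in homozygous ones. Lamb3, a chain of laminin-332, went from 27 and 155 CPM to 18.8 and 20. Ephx1, an epoxide hydrolase, and Slc16a6, a ketone body transporter, also had about equal crypt levels in both genotypes and lower levels in homozygous villi. In the Vil1-CreER heterozygotes Slc37a2 averaged 1.79 CPM in crypt and 2.82 in villus, with overlap (0.76, edgeR adjusted p = 0.385). Its high villus level was therefore not seen in that set. Ephx1, Slc16a6, Lamb3 and Gsta1 were higher in villus there without overlap, with villus means of 30, 91.4, 40.7 and 52 CPM. Leaving out the homozygote of replicate 5 raised the number of calls from 772 to 2259, and leaving out the heterozygote of replicate 5 lowered it to 223. Markers of sex also differed between the genotypes. Ddx3y, a gene of the Y chromosome, was at 13.6 to 29.8 CPM in the heterozygous libraries. The X-inactivation transcript Xist was at 0 to 0.431 CPM in them. The homozygote of replicate 1 was alike, with 20.2 and 19.7 CPM of Ddx3y in crypt and villus. The homozygotes of replicates 3, 4 and 5 had no read of Ddx3y and 85 to 341 CPM of Xist. By these markers the heterozygotes were male and all homozygotes but replicate 1 female. Genotype and sex thus largely went together in every interaction value, and the part of sex was not tested.

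**Figure D5:**
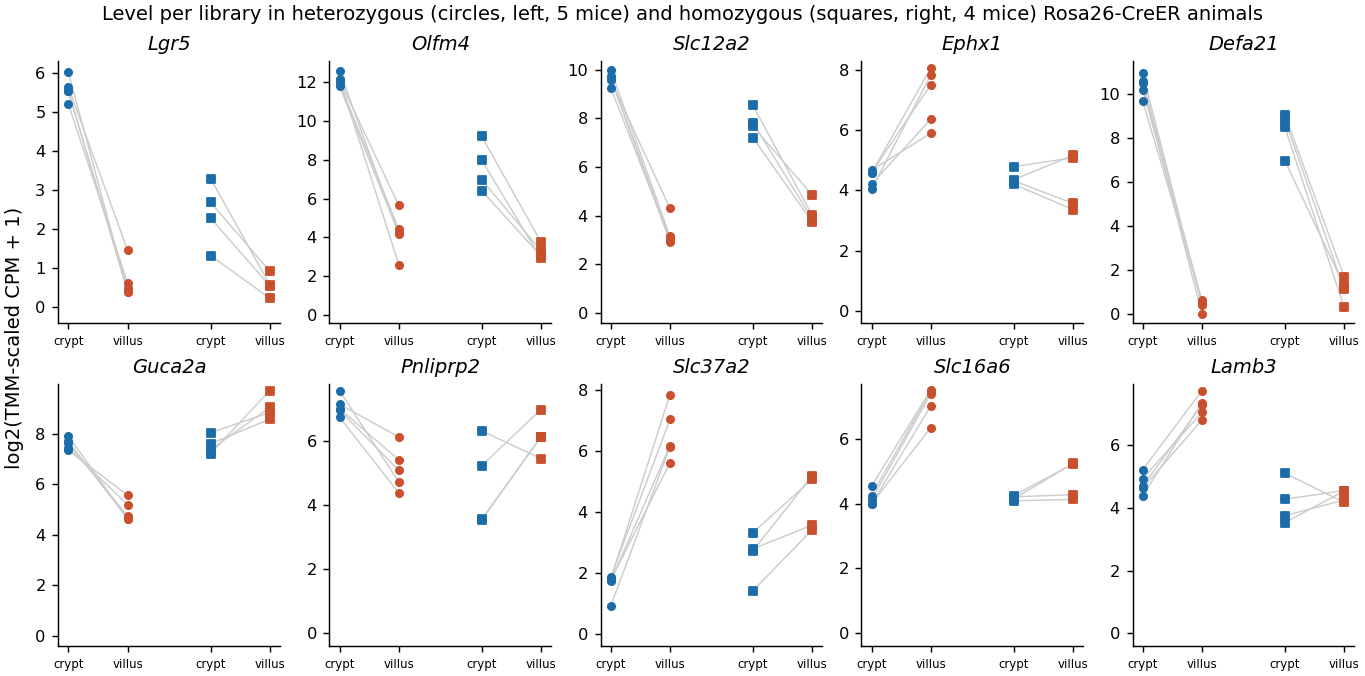
Level of 10 genes per library as log2(TMM-scaled CPM + 1), with crypt in blue and villus in orange, lines joining the tissues of an animal, heterozygotes as circles on the left and homozygotes as squares on the right. Lgr5 and Olfm4 have lower crypt levels in homozygotes, Guca2a has higher villus levels (means of 31 and 547 CPM), and Slc37a2, Slc16a6 and Lamb3 have lower villus levels.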

How the data were processed

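Polyadenylated RNA of 5 crypt and 5 villus fractions of the same heterozygous mice was read as raw counts per gene, as deposited by the authors in 1 table of 54532 genes. Reads were aligned with HISAT2 2.0.5 to GRCm38 (mm10), per the submitters' processing notes; the counting program is not given in the sources used here. Genes with low counts were removed by filterByExpr, libraries were scaled by TMM, and villus and crypt were compared with edgeR 4.0.16 (quasi-likelihood, robust, R 4.3.3) with the animal as a block. Log2 fold changes come from that fit, p-values were adjusted by Benjamini-Hochberg over all genes tested, and the threshold was 0.05. Same-numbered libraries come from the same animal per the labels; the correlation of paired residuals ran from -0.0419 to 0.171. No 2 libraries agreed within sampling noise. The Vil1-CreER animals were fitted alone, from their own deposited table. The interaction used 18 libraries; 1 homozygous villus library without a crypt was left out. Counts fix the precision of low levels, and the floor for 0 was 3 counts per library. Gene lists were described by counts and medians. Genes named by size are the 12 per direction with the largest change among those called whose average log2 CPM was 5 or more, and the 5 per sign for the interaction; other named genes are list members, and some members counted in the lists are not reported here by name. The groups and the 49 lists (683 genes, 682 of them in the tables) were chosen with earlier results of these data known. The scripts were tested on simulated data. Alternatives were DESeq2 1.42.0, its size factors, no block, no filter, other animal subsets and a spread shared with the homozygotes.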

Additional observations from a re-analysis of the deposited data

Results flagged for a closer look

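For 33 of 399 groups of 5 libraries tested, 1 library lay apart from the other 4 by Dixon's ratio, where chance gives about 1 in 20. In 17 of them it was the villus library of replicate 3. Its levels were 1.81 CPM of Lgr5 (nearest other library 0.536), 0.777 of Ascl2 (0.119), 4.99 of Myc (1.88), 7.26 of Ccnd1 (3.01), 1.17 of Bmp7 (0.396), 7.64 of Ccnb2 (1.72), 4.08 of Cdk1 (1.18) and 1.62 of Pola1 (0.435). It had 8.29 CPM of Kat2a (2.89), 13.6 of Impdh2 (3.97), 101 of Spink4 (60.2), 117 of Dclk1 (43.3), 13 of Ceacam10 (6.17) and 576 of Gzma (302). All of these were above the other 4 villus libraries. It was below them for Arg2 at 303 CPM (425), Aldh1a1 at 312 (786) and Ush1c at 303 (319).

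Other villus libraries apart were replicate 2 for Hnf4a at 1270 CPM (nearest 1050) and replicate 1 for Kat2b at 66.3 (58.5). Among crypt libraries, replicate 1 was high for Muc2 at 852 CPM (251), Agr2 at 463 (325), Reg1 at 121 (47.2) and Slc19a3 at 1.96 (0.802). Replicate 3 was high for Dcn at 274 (84.1), Aldh1a2 at 23.3 (7.45) and Krt7 at 130 (111), and low for Slc1a1 at 30.3 (35.8). Replicate 4 was high for Gzma at 312 (121) and Nt5e at 7.58 (3.88), and low for Dll1 at 34.3 (45) and Ptch1 at 26.5 (31.9). Replicate 5 was low for Fos at 9.87 (19.3) and Mptx2 at 429 (492).

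The crypt-villus difference was tested between genotypes with edgeR and Benjamini-Hochberg adjustment, and the 13 genes named from that test are listed here. The 5 largest of each sign were chosen among genes already called, so that they passed was fixed by the choice. The others are called members of the stem cell list. Over all genes, 772 of 16514 (4.67%) were called. The interaction, homozygous minus heterozygous, was positive for Lgr5 at 3.12 (adjusted p = 0.0206), Olfm4 at 3.44 (0.0236), Slc12a2 at 2.75 (0.0089) and Guca2a at 4.17 (0.00312). It was 3.62 for Pnliprp2 (0.0271), 3.52 for Defa17 (0.0408), 3.72 for Defa21 (0.0363) and 4.94 for Defa23 (0.0302), and each of these 4 lost the call in 6 to 8 of 13 alternative fits. It was negative for Slc37a2 at -3.56 (0.00812), Ephx1 at -2.92 (0.0243), Slc16a6 at -2.48 (0.00342), Lamb3 at -2.28 (0.0106) and Gsta1 at -1.94 (0.0274). Ephx1 and Gsta1 each lost the call in 5 of the 13, and Lgr5 and Olfm4 each in 4.

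The sign in each animal was compared between the sets only for the 15 genes named in the Vil1-CreER comparison. For 5 of these, already given above with opposite calls, every Rosa26-CreER heterozygote had the opposite sign of every Vil1-CreER heterozygote. How many of all genes would do so was not counted, and this difference between the sets was not tested. The log2 differences, villus minus crypt, were 4.12 and -2.38 for Cybrd1, 5.59 and -0.979 for Slc40a1, and -3.39 and 2.27 for Slc10a2. They were -1.42 and 0.43 for Osr2 and 1.52 and -0.379 for Insig1.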

How the results depend on the processing

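The number of genes called between villus and crypt (11230) lay between 9773 and 11875 under every alternative, and between 10502 and 11094 when 1 animal was left out. Without the replicate block it was 11400, and of the named genes Duox2 and Eif4g3 lost the call, as did Slc10a2, Osr2, Slc40a1, Pdx1, Tmigd1 and Fgf15 in the Vil1-CreER animals and Defa17 in the interaction; no other named call changed with the block. Without a filter the median of all genes moved from -0.103 to -0.38. Of the named genes' alternative values, 2314 kept direction and call, 55 lost the call, 5 gained one and 14 changed sign. With the animals of replicates 1 and 2 alone, Eif4g2 had 0.077, Crebbp -0.028, Dclk1 -0.99, Egfr -0.30 and Muc2 -0.17. Hopx had -0.061 and Eif4g1 -0.023 without a filter. With replicates 3, 4 and 5 alone, Hopx had -0.14 and Tmigd1 0.52. When 1 animal was left out, Hopx ran from -0.074 to 0.17, Dclk1 from -0.14 to 0.64 and Tmigd1 from -0.56 to 0.27. In the Vil1-CreER set the DESeq2 Wald test gave -1.0 for Fabp6. The mitochondrial share difference ran from -3.05 to 3.68 points when 1 animal was left out. The cause of these changes was not tested.

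The interaction count (772) was less stable. It was 1278 without the replicate block, of which 58.3% were positive against 65.5%, and 2118 with the DESeq2 Wald test (54.8% positive). Leaving out 1 animal gave between 223 and 2259. Low genes such as those near 1 CPM in villus rest on few counts.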
